A study of Homo sapiens with 24 samples.

Results

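A set of 10 human genes for the detection of double-stranded RNA and the response to it were followed through 4 RNA-seq experiments on OE33 cells. The 10 genes were chosen by name and found in the count tables by their Ensembl identifiers: the sensors IFIH1, DDX58 (now also listed as RIGI), DHX58 and TLR3, the adaptor MAVS, the effectors EIF2AK2, OAS1, OAS2 and OAS3, and the editing enzyme ADAR. They are 10 of the 61860 genes in each table, and all 10 passed the filter on low counts in all 4 experiments.

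OE33 is a cell line from an adenocarcinoma of the lower esophagus, and 24 libraries of it fell into 8 groups of 3. In the diet experiment, OE33 cells were injected under the skin of male BALB/c-nu nude mice, which were 4 weeks old when obtained and lack T cells but keep innate immune cells, after 8 weeks on a diet rich in fat (HFD) or a normal one (ND), and the tumors were taken 3 weeks later. In culture, cells were transfected for 48 h with a plasmid for HA-tagged TRIM15, an E3 ubiquitin ligase (HA-TRIM15), or with the empty vector (EV). They were transfected for 72 h with shRNA plasmids against the transcription factor YY2 (shYY2) or the mitochondrial protein FOXRED1 (shFOXRED1), each with a shControl of its own. All groups share the OE33 line, and all culture groups were transfected with a plasmid. The labels do not say whether the 3 libraries of a group came from separate cultures or animals, so p-values measure only the spread between these libraries. Each shControl was a control plasmid given for the same 72 h, so a fold change against it compares a targeting hairpin with that control. The sources used here give no shControl sequence and do not state whether it carries a hairpin. Between the shRNA arms and HA-TRIM15, all in culture, the kind of plasmid and the time after transfection cannot be told apart, and between the shRNA arms and HFD the place of growth cannot be told apart from them either.

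Long double-stranded RNA is rare in a healthy cell and marks virus infection or the cell's own repeat and mitochondrial transcripts. IFIH1 (the protein MDA5) and DDX58 (RIG-I) are cytoplasmic helicases that bind such RNA and signal through MAVS on the mitochondrial surface, DHX58 (LGP2) tunes them, and TLR3 reads double-stranded RNA in endosomes without MAVS. The signal switches on interferon genes, and most of the 10 genes are themselves interferon-stimulated. EIF2AK2 (PKR) is a kinase that stops translation when double-stranded RNA binds it, OAS1, OAS2 and OAS3 make 2-5A oligonucleotides, a second messenger that leads to RNA decay, and ADAR changes adenosine to inosine in double-stranded RNA and so keeps a cell's own RNA from being sensed.

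An shRNA is itself a short RNA duplex. The question put to the data was whether the shRNA arms differed from HA-TRIM15 and HFD in these genes. The hairpin oligonucleotides designed against YY2 and FOXRED1 were cloned into the plasmids that the cells received, and are shown because the RNA duplexes of the shRNA arms are made from them. The study lists a pair for each target, and the sources used here do not say which of them was sequenced. The oligonucleotides are written 5′ to 3′ with both arms of the 21-base stem in capitals.
shYY2 #1: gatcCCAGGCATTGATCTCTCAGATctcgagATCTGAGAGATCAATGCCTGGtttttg
shYY2 #2: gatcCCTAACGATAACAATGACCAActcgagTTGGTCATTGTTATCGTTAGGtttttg
shFOXRED1 #1: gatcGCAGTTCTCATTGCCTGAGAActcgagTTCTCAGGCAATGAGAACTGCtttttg
shFOXRED1 #2: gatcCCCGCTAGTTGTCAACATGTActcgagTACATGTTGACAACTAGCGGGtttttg
Each stem was found whole in a GENCODE 29 transcript of its target. The longest run that any of the 4 stems shared with a transcript of the 10 genes was 9 to 11 of the 21 bases.

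Libraries held 14299807 to 45994561 counts, the deepest being from xenografts. The 9 epithelial markers were all detected in every group, and the summed level of the 10 leukocyte markers was 8.45 to 26.8 CPM (counts of a gene scaled to the size of its library) over the 24 libraries. TRIM15 rose with HFD and HA-TRIM15, from at most 1 count in ND or EV libraries to 12 to 24 counts with HFD and 111 to 181 with HA-TRIM15. YY2 fell by 1.82 on the log2 scale in shYY2 (adjusted p = 1.30e-06, edgeR quasi-likelihood test), and FOXRED1 fell by 0.78 in shFOXRED1 (adjusted p = 4.06e-05). FOXRED1 also fell with shYY2, by 0.89 (adjusted p = 3.31e-09), and with HA-TRIM15, by 0.24 (adjusted p = 0.00509).

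With shYY2, 7 of the 10 genes rose and 2 fell, against 36.8% and 38.1% of the 16006 genes tested. With shFOXRED1, 6 of the 10 rose and none fell, where 16.8% and 19.7% of 15730 genes did. HFD raised 4 and lowered 2 of the 10, and 25.6% and 23.9% of 17012 genes rose and fell. HA-TRIM15 raised only IFIH1 and lowered none, against 12.5% and 9.53% of 15745 genes. A call here is an adjusted p under 0.05 in edgeR's quasi-likelihood test, adjusted by Benjamini-Hochberg across the genes of that comparison. The HA-TRIM15 count became 2 without HA-TRIM15 replicate 1, when EIF2AK2 also passed. Leaving out 1 library moved the genes higher with shYY2 over 5 to 7 and those higher with HFD over 3 to 4. A fold change of at least 2 was passed by 1 gene with shFOXRED1, TLR3, and by none in the other experiments, where 3.83% (HFD), 0.724% (HA-TRIM15), 19.6% (shYY2) and 3.46% (shFOXRED1) of all genes passed it. The median log2 fold change of the 10 genes was 0.060 with HFD, 0.056 with HA-TRIM15, 0.23 with shYY2 and 0.40 with shFOXRED1, and that of all genes lay between -0.012 and 0.012.

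**Figure D1:**
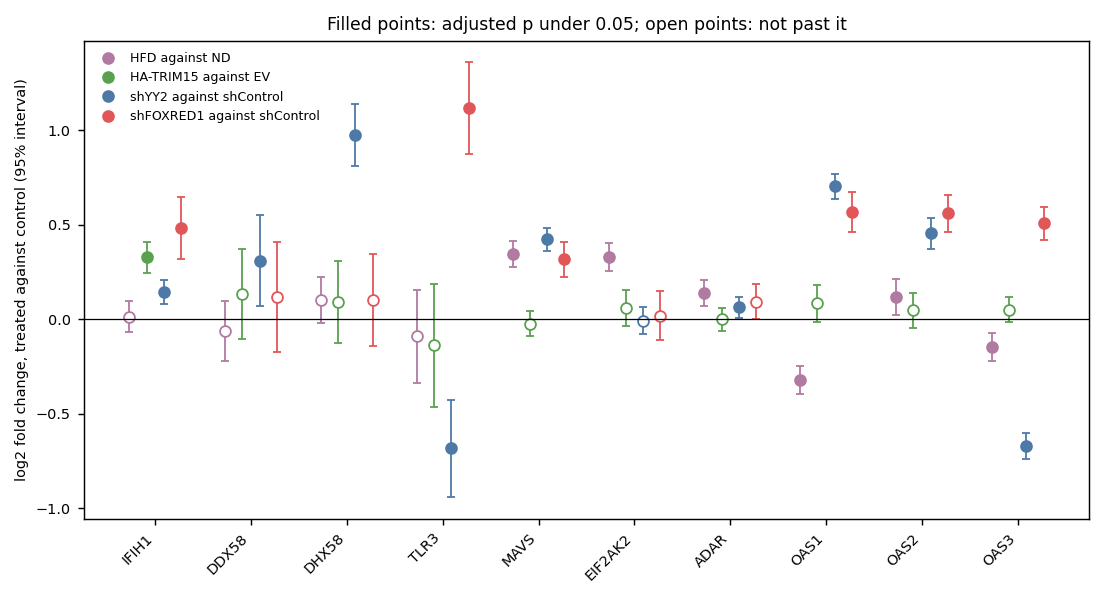
Log2 fold change of each of the 10 genes in each experiment, treated against its own control, with the 95% interval from edgeR's quasi-likelihood fit (3 libraries against 3). Filled points passed an adjusted p of 0.05. OAS1 and OAS2 sat above 0 in both shRNA experiments, while TLR3 and OAS3 sat below 0 with shYY2 and above 0 with shFOXRED1.

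Interferon-stimulated genes often carry the interferon-stimulated response element near their start, which interferon regulatory factors bind. Its core, GAAA, any 2 bases and GAAA again, was looked for on both strands from 250 bases before to 50 bases after the start site in RefSeq promoters (GRCh38.p14). Of the 10 genes, 8 had an entry and 4 of these held this spacing, IFIH1, TLR3, EIF2AK2 and OAS3, against 3.57% of 35116 promoters. With 1 base between the GAAA runs, a form searched after the sequences had been seen, the core was in the windows of DDX58, OAS1 and OAS3, against 3.12% of promoters. The stretches that hold the 2-base spacing are shown 5′ to 3′ on the strand of the gene, with the core in capitals, because these 4 genes moved differently across the experiments. On the other strand it reads TTTC, any 2 bases and TTTC.
IFIH1, chr2:162318675-162318868, minus strand: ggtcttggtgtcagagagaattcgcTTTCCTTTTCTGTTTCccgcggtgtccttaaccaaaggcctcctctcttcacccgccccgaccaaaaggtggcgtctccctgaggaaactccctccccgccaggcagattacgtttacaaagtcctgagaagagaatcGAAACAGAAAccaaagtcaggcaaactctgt
TLR3, chr4:186069127-186069165, plus strand: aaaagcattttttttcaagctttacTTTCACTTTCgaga
EIF2AK2, chr2:37156971-37157011, minus strand: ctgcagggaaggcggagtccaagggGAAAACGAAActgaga
OAS3, chr12:112938306-112938483, plus strand: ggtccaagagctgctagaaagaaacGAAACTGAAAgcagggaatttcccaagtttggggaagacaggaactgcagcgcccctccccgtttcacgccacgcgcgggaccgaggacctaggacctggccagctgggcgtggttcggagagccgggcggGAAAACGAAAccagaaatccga
IFIH1 held 3 matches, 2 of them overlapping, OAS3 held 2, and TLR3 and EIF2AK2 held 1 each. A further cytokine response element, TTCNNNGAA, which reads the same on both strands, was in the windows of TLR3 and OAS1, against 7.66% of promoters. The 4 genes with the 2-base spacing did not move alike in the shRNA arms. IFIH1 rose in both, EIF2AK2 did not pass the test in either shRNA arm, and OAS3 and TLR3 went opposite ways in the pair of them. A match describes letters in a window and is no evidence of binding.

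IFIH1 encodes MDA5, the sensor of long duplexes, at chr2:162267079-162318703 (GRCh38). With shFOXRED1 its libraries stood at 75.9, 81.5 and 66.2 CPM and those of shControl at 50.6, 55.8 and 54.0 CPM, so the groups did not overlap. The fitted log2 fold change was 0.48 ± 0.078 (SE, adjusted p = 0.000108). With HA-TRIM15 the libraries held 94.9, 99.2 and 94.1 CPM, all above the 75.5, 75.4 and 78.2 CPM of EV. This was the one call that HA-TRIM15 gave among the 10 genes, a log2 fold change of 0.33 ± 0.038 (SE, adjusted p = 2.85e-05). With shYY2 the rise was smaller but even, 158, 159 and 158 CPM against 141, 143 and 146 CPM. Its log2 fold change was 0.14 ± 0.029 (SE, adjusted p = 0.000318). In xenografts HFD gave 155 to 166 CPM and ND 153 to 159 CPM, groups that overlapped, with a log2 fold change of 0.015 and a 95% interval of -0.064 to 0.095.

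DDX58 encodes RIG-I, the sensor of short duplexes with a triphosphate end, and was scarce. It had 135, 165 and 177 counts with shYY2, or 8.22, 9.90 and 9.58 CPM, against 6.53, 7.38 and 8.37 CPM in shControl. The highest shControl library lay above the lowest shYY2 library, and the log2 fold change was 0.31 ± 0.11 (SE, adjusted p = 0.0215). This call was lost without shYY2 replicate 2 (adjusted p = 0.0824) or 3 (0.0675), without shControl replicate 1 (0.119) or 2 (0.0506), and with DESeq2 (0.0523). No other experiment called DDX58, with log2 fold changes of -0.063 for HFD, 0.13 for HA-TRIM15 and 0.12 for shFOXRED1. At 81 to 141 counts a library in the HA-TRIM15 and FOXRED1 experiments, the 95% intervals of the latter pair ran from -0.10 to 0.37 and from -0.17 to 0.41, both of which include the value seen with shYY2.

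DHX58 encodes LGP2, the helicase without signalling domains that tunes MDA5 and RIG-I. Of the 10 genes it had the largest rise with shYY2, from 13.3, 13.0 and 12.1 CPM in shControl to 24.7, 27.4 and 23.3 CPM, with no overlap. The log2 fold change was 0.98 ± 0.077 (SE, adjusted p = 1.01e-08), or 1.97-fold. The other experiments did not call it. With shFOXRED1 its libraries spread over 11.8 to 13.1 CPM and those of shControl over 10.9 to 12.3 CPM, and the 95% interval of the log2 fold change was -0.14 to 0.35. The HFD libraries, at 21.5 to 23.1 CPM, all lay above those of ND, at 20.2 to 21.3 CPM, but the log2 fold change of 0.10 did not pass the test (adjusted p = 0.146). HA-TRIM15 gave 0.091, with a 95% interval of -0.13 to 0.31.

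TLR3, the endosomal sensor, moved opposite ways in the shRNA arms. Its libraries held 22.4, 19.9 and 24.4 CPM with shFOXRED1 and 11.0, 9.16 and 10.4 CPM in shControl, where every treated library was above every control. This was a log2 fold change of 1.12 ± 0.12 (SE, adjusted p = 8.37e-07), and 2.17-fold. With shYY2 the libraries held 4.69, 5.46 and 4.49 CPM and their controls 7.58, 7.21 and 8.62 CPM, where every treated library was below every control. TLR3 fell by 0.68 on the log2 scale there, or by 37.7% (SE 0.12, adjusted p = 9.27e-05). TLR3 had 52 to 193 counts a library in the HFD and HA-TRIM15 experiments, where neither comparison called it. The log2 fold changes there were -0.089 (95% interval -0.33 to 0.16) and -0.14 (95% interval -0.46 to 0.19).

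MAVS, the adaptor that MDA5 and RIG-I share, rose in 3 of the 4 experiments. HFD xenografts held 407, 415 and 409.7 CPM and ND xenografts 323, 326 and 319.7 CPM. The shYY2 libraries held 489.8, 478 and 506 CPM against 362, 369 and 368 CPM in shControl, and the shFOXRED1 libraries 634, 634 and 644 CPM against 527, 506 and 499.8 CPM. In none of the 3 did treated and control libraries overlap. The log2 fold changes were 0.35 ± 0.032 (SE, adjusted p = 1.82e-07) with HFD, 0.42 ± 0.029 (SE, adjusted p = 1.47e-09) with shYY2 and 0.32 ± 0.044 (SE, adjusted p = 2.50e-05) with shFOXRED1. With HA-TRIM15, by contrast, MAVS stood at 321 to 334 CPM and with EV at 327 to 336 CPM, and the 95% interval of the log2 fold change was -0.087 to 0.043. At 4941 to 15610 counts a library, MAVS was measured far more closely than the sensors DDX58 and TLR3.

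EIF2AK2, the gene of the kinase PKR, passed the test in the xenografts alone. It rose from 157, 151 and 155 CPM with ND to 189, 194 and 198 CPM with HFD, without overlap, a log2 fold change of 0.33 ± 0.035 (SE, adjusted p = 9.25e-07). In the shRNA arms it did not pass the test. The shYY2 libraries held 206, 212 and 216 CPM against 204, 215 and 218 CPM, and the 95% interval of the log2 fold change was -0.077 to 0.064. With shFOXRED1 the libraries held 485, 476 and 568 CPM against 489.5, 490.0 and 529 CPM, and the interval was -0.11 to 0.15. HA-TRIM15 gave 0.060 (adjusted p = 0.375), and without HA-TRIM15 replicate 1, the lowest of its group at 159.7 CPM, this became 0.12 (adjusted p = 0.00843).

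ADAR, the editing enzyme, had the narrowest range of log2 fold changes of the 10 genes. The largest of its 4 log2 fold changes was 0.14 ± 0.033 (SE, adjusted p = 0.00244) with HFD, from 434 to 443 to 469.7 to 493 CPM. With shYY2 the libraries held 504, 509 and 521 CPM, all above the 487, 489 and 493 CPM of shControl, a log2 fold change of 0.063 ± 0.026 (SE, adjusted p = 0.0392). That call did not hold without shYY2 replicate 2 (adjusted p = 0.0642) or 3 (0.138), without shControl replicate 1 (0.148) or 2 (0.134), or with no filter on counts (0.194). With shFOXRED1 the log2 fold change was 0.095 ± 0.045 (SE, adjusted p = 0.111). With the replicate number as a block, a setting run in all 4 experiments, it was 0.095 (adjusted p = 0.00948, edgeR). Same-numbered libraries of the FOXRED1 experiment deviated together. With HA-TRIM15 it was -0.00042, and the 95% interval was -0.063 to 0.062.

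The OAS genes lie side by side on chromosome 12 (GRCh38), OAS1 at chr12:112906777-112933222, OAS3 at chr12:112938352-112973249 and OAS2 at chr12:112978395-113011723, all on the plus strand. They are paralogs, so that reads of shared stretches could have been split between them by the authors' counting, and their separate levels are uncertain to that extent. They did not move as a block: OAS1 and OAS2 rose in both shRNA arms, and OAS3 rose in one and fell in the other.

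OAS1, the smallest of the synthetases, held 145, 153 and 149 CPM with shYY2 against 91.3, 91.0 and 91.6 CPM in shControl. With shFOXRED1 it held 516, 499.8 and 465 CPM against 340.2, 335 and 324 CPM. In both arms all treated libraries were above all controls, with log2 fold changes of 0.71 ± 0.031 (SE, adjusted p = 8.77e-12) and 0.57 ± 0.051 (SE, adjusted p = 1.60e-07). In xenografts the order was turned, with 177, 171 and 174 CPM on HFD and 211, 221 and 219 CPM on ND. OAS1 fell by 0.32 on the log2 scale there, or by 19.8% (SE 0.035, adjusted p = 1.20e-06). With HA-TRIM15 all 3 libraries, at 72.4 to 74.8 CPM, were above those of EV, at 64.8 to 72.2 CPM, but the log2 fold change of 0.085 did not pass the test (adjusted p = 0.204).

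OAS2 rose in both shRNA arms. The libraries of shYY2 held 77.4, 82.5 and 77.7 CPM and those of its shControl 56.9, 56.9 and 59.3 CPM. Those of shFOXRED1 held 428, 433 and 449.6 CPM and their controls 291, 302 and 296 CPM. Neither pair of groups overlapped, and the log2 fold changes were 0.46 ± 0.039 (SE, adjusted p = 2.93e-08) and 0.56 ± 0.047 (SE, adjusted p = 8.22e-08). With HFD, OAS2 stood at 84.2, 77.2 and 79.4 CPM against 71.9 to 78.4 CPM on ND, groups that overlapped, and the log2 fold change of 0.12 ± 0.045 (SE, adjusted p = 0.0395) was at the edge of the test. It was lost without HFD replicate 1 (adjusted p = 0.182) or 3 (0.0666), without ND replicate 2 (0.0992) or 3 (0.0821), with DESeq2 (0.0628) and with at least 10 counts asked of every library (0.0597). With HA-TRIM15 the libraries held 43.1 to 44.5 CPM and those of EV 42.2 to 42.5 CPM, a log2 fold change of 0.048 (adjusted p = 0.479).

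OAS3, whose product prefers long duplexes, followed its neighbours in one shRNA arm and not in the other. With shFOXRED1 it rose from 865, 867 and 864 CPM to 1234, 1269 and 1192 CPM, a log2 fold change of 0.51 ± 0.042 (SE, adjusted p = 5.75e-08). With shYY2 it stood at 188, 194 and 182 CPM against 299, 306 and 293 CPM in shControl, so that all treated libraries were below all controls. It fell by 0.67 on the log2 scale, or by 37.1% (SE 0.032, adjusted p = 1.99e-11). HFD lowered it slightly, from 333, 335 and 320.0 to 304, 299 and 290.0 CPM, and it fell by 0.15 (SE 0.035, adjusted p = 0.00235). The HA-TRIM15 libraries, at 225 to 232 CPM, all lay above those of EV, at 221 to 222 CPM, without passing the test (log2 fold change 0.052, adjusted p = 0.251).

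**Figure D2:**
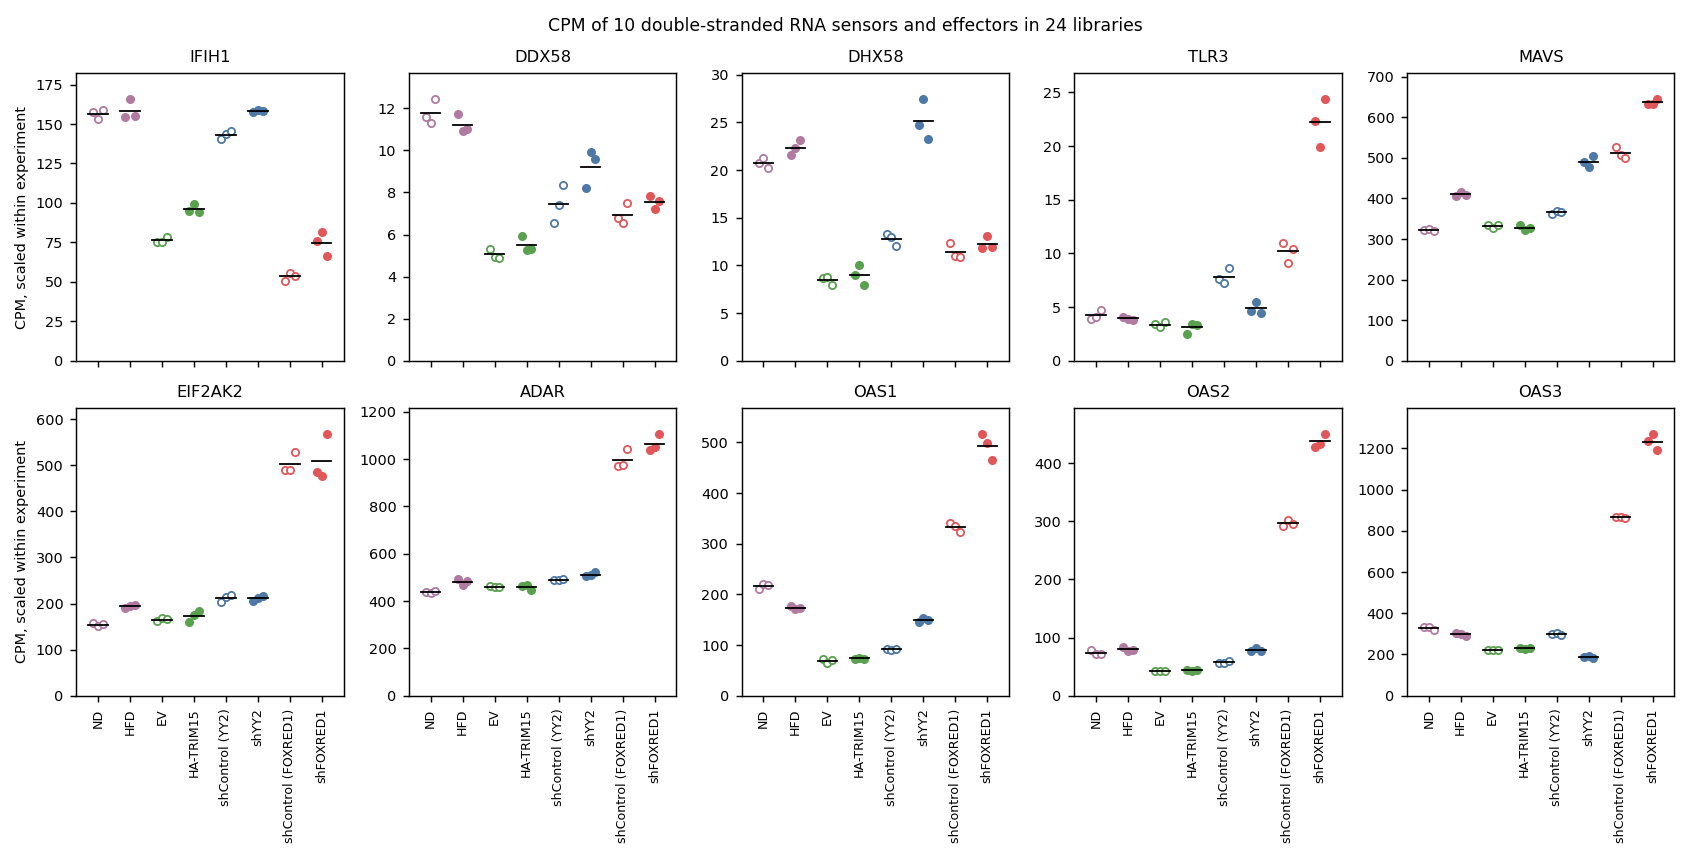
CPM of each of the 10 genes in the 24 libraries, scaled within each experiment, 1 point per library (open points for controls, filled for treated) with the group mean as a bar. OAS3 reads 182 to 194 CPM with shYY2 against 293 to 306 CPM in its shControl, and 1192 to 1269 CPM with shFOXRED1 against 864 to 867 CPM in its own.

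To ask whether the shRNA arms differed from HA-TRIM15 and HFD, the mean of both shRNA log2 fold changes was set against the mean of the HA-TRIM15 and HFD log2 fold changes in one fit over all 24 libraries. Of the 10 genes, 6 had a higher change in the shRNA arms and 1 had a lower one, against 28.2% and 29.4% of 17980 genes. The median absolute difference was 0.21 for the 10 genes and 0.38 for all genes, and 79.0% of genes had a smaller one than OAS1. OAS1 differed most, by 0.77 ± 0.041 (SE, adjusted p = 3.18e-16). DHX58 followed with 0.45 ± 0.084 (SE, adjusted p = 2.82e-05), OAS2 with 0.44 ± 0.043 (SE, adjusted p = 2.60e-10), TLR3 with 0.34 ± 0.13 (SE, adjusted p = 0.0201), MAVS with 0.22 ± 0.031 (SE, adjusted p = 3.17e-07) and IFIH1 with 0.16 ± 0.050 (SE, adjusted p = 0.00876). EIF2AK2 was the one with a lower change in the shRNA arms, -0.18 ± 0.051 (SE, adjusted p = 0.00387). DDX58, ADAR and OAS3 did not pass the test, with 95% intervals of -0.014 to 0.40, -0.043 to 0.088 and -0.088 to 0.049. These values average over the arms, and several rest on a single arm or treatment. DHX58 had a higher change with shYY2 but not with shFOXRED1, whose differences were 0.0054 against HA-TRIM15 and -0.013 against HFD, neither past the test. IFIH1 did not pass the test against HA-TRIM15 in either arm. Its differences there were -0.15 with shYY2 (adjusted p = 0.0685) and 0.15 with shFOXRED1 (adjusted p = 0.123, edgeR quasi-likelihood test). MAVS stood at -0.041 for shFOXRED1 minus HFD (adjusted p = 0.459). EIF2AK2 differed from HFD (-0.30 and -0.32 for shYY2 and shFOXRED1), while its differences from HA-TRIM15, -0.030 and -0.048, did not pass. For OAS3 the value near 0 averages a fall with shYY2 and a rise with shFOXRED1. The TLR3 difference averages the like, set against uncalled falls with HA-TRIM15 and HFD. With shYY2 alone TLR3 had a lower change than with HA-TRIM15 (-0.51) or HFD (-0.56), both past the test. In edgeR the averaged TLR3 difference was lost without HA-TRIM15 replicate 1 (0.26, adjusted p = 0.0765) or shYY2 replicate 2 (0.30, adjusted p = 0.0528). It was also lost with no filter on counts (0.32, adjusted p = 0.0969, edgeR) and with DESeq2 (0.32, adjusted p = 0.0511).

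Each shRNA effect was also set against each of the other effects. OAS1 and OAS2 alone had a higher change in each shRNA arm than in each of HA-TRIM15 and HFD, in all 4 differences, which held for 5.71% of all genes. None of the 10 had a lower change in all 4, against 9.46% of genes. For OAS1 the 4 differences were 0.66 (shYY2 minus HA-TRIM15), 1.06 (shYY2 minus HFD), 0.48 (shFOXRED1 minus HA-TRIM15) and 0.88 (shFOXRED1 minus HFD). For OAS2 they were 0.44, 0.37, 0.51 and 0.43 in the same order. None of these 8 calls was lost in any alternative, and the highest adjusted p over them was 5.68e-05 (OAS2, shYY2 minus HFD). Each effect enters several of these differences, so they are not independent of each other.

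Between shYY2 and HA-TRIM15, 4 of the 10 genes had a higher and 2 a lower change with shYY2 (28.2% and 29.3% of all genes). Between shYY2 and HFD it was 6 and 3 (31.7% and 30.2%). The 2 lower genes became 1 without HA-TRIM15 replicate 2 or 3, EV replicate 2, shYY2 replicate 3 or shControl replicate 3 of the YY2 experiment, and 3 without HFD replicate 2. The 6 higher genes became 3 without shControl replicate 1 of the YY2 experiment. Between shFOXRED1 and HA-TRIM15, 5 were higher and none lower (15.4% and 21.2%), namely TLR3 by 1.25, OAS2 by 0.51, OAS1 by 0.48, OAS3 by 0.45 and MAVS by 0.33. Between shFOXRED1 and HFD, 5 were higher and 1 lower (23.2% and 26.4%). The treatments without a hairpin also differed from each other, with 3 genes higher and 3 lower with HFD than with HA-TRIM15 (16.0% and 12.3%). IFIH1 was among the latter 3, with a difference of -0.31 (adjusted p = 0.000751, edgeR quasi-likelihood test).

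The shRNA arms differed from each other in 6 of the 10 genes, 3 in each direction, where 28.8% of all genes were higher and 26.7% lower with shYY2. TLR3 had the widest gap, shYY2 minus shFOXRED1 being -1.76 ± 0.16 (SE, adjusted p = 9.00e-11). OAS3 came next with -1.14 ± 0.047 (SE, adjusted p = 1.34e-18), and DHX58 differed the other way by 0.92 ± 0.12 (SE, adjusted p = 1.31e-07). Smaller gaps were those of IFIH1, -0.30 (adjusted p = 0.000878), OAS1, 0.18 (adjusted p = 0.00826), and MAVS, 0.15 (adjusted p = 0.00461). With no filter on counts the calls of MAVS (adjusted p = 0.129) and OAS1 (0.0628) were lost. The OAS2 effects differed by -0.062, with a 95% interval of -0.18 to 0.056. Of the 10 genes, 4 rose in both arms (IFIH1, MAVS, OAS1 and OAS2), as did 9.31% of 14922 genes tested in both, and none fell in both, as 12.7% did. TLR3 and OAS3 fell with shYY2 and rose with shFOXRED1, a pattern of 4.13% of genes, and none did the reverse, which 5.07% did.

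**Figure D3:**
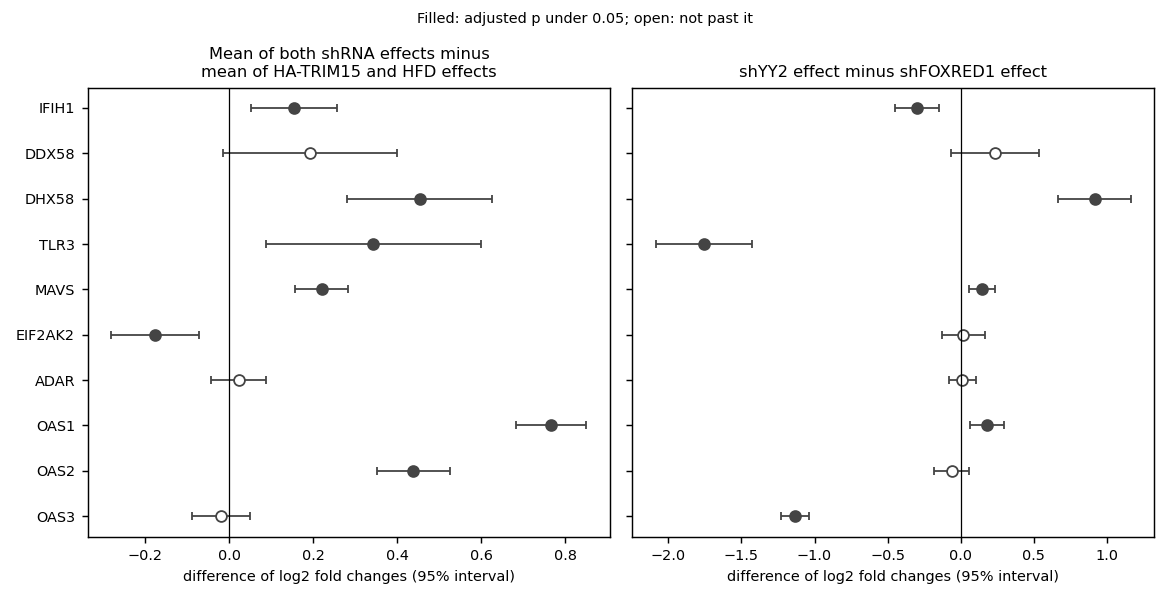
Differences of log2 fold changes with 95% intervals from one edgeR fit over 24 libraries, for the 10 genes: left, the mean of both shRNA effects minus the mean of the HA-TRIM15 and HFD effects; right, the shYY2 effect minus the shFOXRED1 effect. OAS1 leads on the left at 0.77, and on the right TLR3 (-1.76) and OAS3 (-1.14) lie far from 0.

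The controls themselves were unlike. Per kilobase of exon, with all 24 libraries scaled together, the shControl of the FOXRED1 experiment had the highest level of the 4 control groups for 7 of the 10 genes, as it had for 32.4% of 15212 genes at 1 CPM or more. OAS2 stood there at 47.0 ± 1.03 CPM per kb (SD, n = 3), against 11.6 ± 0.604 in ND, 9.14 ± 0.218 in the other shControl and 6.96 ± 0.0338 in EV, a ratio of 6.76 from highest to lowest. The same ratio was 4.64 for OAS1, 3.77 for OAS3, 3.31 for EIF2AK2, 2.92 for TLR3, 2.32 for ADAR and 1.61 for MAVS, and its median over all these genes was 1.68. IFIH1 went the other way and was lowest in that shControl, at 10.4 ± 0.530 CPM per kb against 30.0 ± 0.696 in ND. DDX58 and DHX58 were highest in ND and lowest in EV, with ratios of 2.21 and 2.33. Each control belongs to one experiment, so these are descriptions of levels across experiments with no test, and control and experiment cannot be told apart. Both shRNA fold changes were therefore read from different starting levels.

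In EV the order ran from ADAR (48.8 ± 0.184 CPM per kb, SD, n = 3) through MAVS (29.1 ± 0.376) and OAS3 (27.6 ± 0.119) to EIF2AK2 (15.8 ± 0.345), IFIH1 (15.4 ± 0.328), OAS1 (14.4 ± 0.811) and OAS2 (6.96 ± 0.0338). DHX58 (2.26 ± 0.125), DDX58 (1.20 ± 0.0553) and TLR3 (0.516 ± 0.0366) closed it. The libraries of EIF2AK2 and IFIH1 overlapped in that order, and no other neighbours did. ADAR was the highest of the 10 genes in ND, EV and the shControl of the YY2 experiment. In the shControl of the FOXRED1 experiment OAS3 stood above it, with overlapping libraries. TLR3 was the lowest in all 4 controls, DDX58 came next and DHX58 after it, and the libraries of TLR3 and DDX58 overlapped in the shControl of the FOXRED1 experiment.

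**Figure D4:**
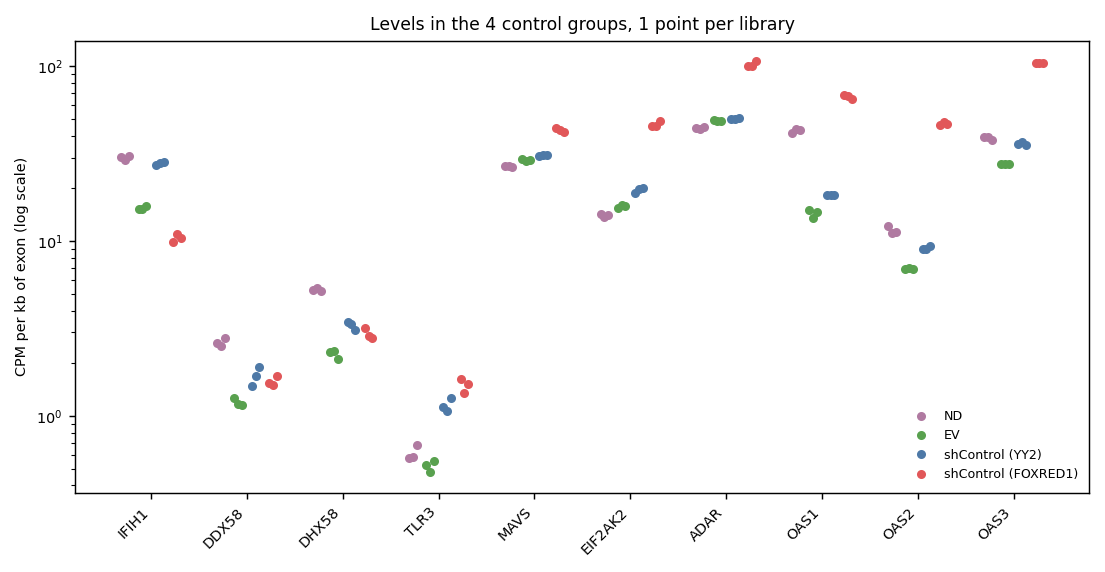
Level of each of the 10 genes in the 4 control groups, in CPM per kilobase of GENCODE 29 exon on a log axis, 1 point per library, all libraries scaled together. The shControl of the FOXRED1 experiment is highest for 7 genes and lowest for IFIH1.

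Other genes of the pathway were read beside the 10, in 6 lists that were chosen with results of these data known. Their counts stand against the shares of all genes given above, and their median log2 fold changes against -0.012 to 0.012 for all genes. Between the sensors and the interferon genes stand adaptors and kinases such as TRAF3, TBK1 and IRF3, a list of 21 genes. It had 10 higher and 2 lower of 21 tested with HFD, 3 higher and 4 lower of 21 with HA-TRIM15, 6 higher and 12 lower of 21 with shYY2 and 7 higher and 5 lower of 21 with shFOXRED1. The median log2 fold changes of the list were 0.12, -0.015, -0.21 and 0.095 in that order. STING1, the adaptor of the DNA-sensing pathway, rose with HFD by 0.85 ± 0.094, from 5.50 ± 0.589 to 9.96 ± 0.300 CPM. IKBKE, a kinase that phosphorylates IRF3, was lower with shYY2, with a log2 fold change of -1.01 ± 0.056, from 48.4 ± 2.62 to 24.1 ± 0.974 CPM. IKBKE was also lower with HA-TRIM15 (-0.17) and higher with HFD (0.17). IRF7, the interferon-inducible regulator of interferon genes, rose with shFOXRED1 by 0.91 ± 0.20, from 4.12 ± 0.970 to 7.73 ± 1.71 CPM.

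Regulators of RIG-I, MDA5 and MAVS, mostly ubiquitin enzymes, gave 10 higher and 6 lower of 20 with HFD, 6 higher and 3 lower of 20 with HA-TRIM15, 11 higher and 7 lower of 19 with shYY2 and 2 higher and 4 lower of 20 with shFOXRED1. Their medians were 0.096, 0.073, 0.12 and -0.015. TNFAIP3 (A20), an inhibitor of NF-kappaB and of RIG-I signalling, rose with HFD by 0.99 and with HA-TRIM15 by 0.66, and fell with shYY2, where the log2 fold change was -1.99 ± 0.029, from 1404 ± 35.4 to 355 ± 7.30 CPM. RNF125, a ligase that marks RIG-I and MDA5 for degradation, fell with shFOXRED1, from 13.8 ± 1.96 to 5.99 ± 0.983 CPM. Its log2 fold change there was -1.21 ± 0.15, and it was also called with shYY2 (-0.58) and HFD (0.62).

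A list of 14 genes covered the PKR and OAS arms. It mixes downstream genes with others, such as the kinases EIF2AK1, EIF2AK3 and EIF2AK4, so it is no readout of PKR or OAS activity. It gave 6 higher and 3 lower of 14 with HFD and 5 higher and 0 lower of 14 with HA-TRIM15. With shYY2 there were 4 higher and 9 lower of 14, and with shFOXRED1 3 higher and 5 lower of 14. The medians of the list were 0.065, 0.097, -0.23 and -0.090. ABCE1, which recycles ribosomes, was lower with shYY2, its log2 fold change being -1.48 ± 0.033, from 190.4 ± 0.646 to 68.4 ± 2.46 CPM. ABCE1 was also lower with shFOXRED1 (-0.48) and higher with HFD (0.45). PPP1R15A (GADD34), which brings a phosphatase to eIF2α, rose with HA-TRIM15 by 1.02 ± 0.040, from 173 ± 4.61 to 349.7 ± 19.3 CPM.

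Other proteins that bind, edit or clear double-stranded RNA gave 11 higher and 3 lower of 25 with HFD, 9 higher and 3 lower of 25 with HA-TRIM15, 5 higher and 18 lower of 25 with shYY2 and 3 higher and 9 lower of 25 with shFOXRED1. The medians were 0.077, 0.081, -0.41 and -0.13. The widest fall was that of DHX9, a helicase that unwinds duplex RNA, with shYY2. Its log2 fold change there was -2.18 ± 0.031, from 376 ± 7.08 to 82.9 ± 1.22 CPM. PNPT1, a nuclease that clears mitochondrial double-stranded RNA, followed with shYY2 at -1.33 ± 0.048, from 69.6 ± 2.54 to 27.7 ± 1.32 CPM. PNPT1 was also lower with shFOXRED1 (-0.41). ADARB1, the other editing enzyme of the ADAR family, rose with shYY2 by 0.92 ± 0.047, from 32.9 ± 1.64 to 62.2 ± 1.49 CPM. ZBP1, a sensor of Z-form nucleic acid, rose with shFOXRED1 by 1.01 ± 0.23, from 2.10 ± 0.612 to 4.30 ± 0.412 CPM.

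Interferon ligands, receptors and signal transducers gave 10 higher and 4 lower of 21 with HFD, 10 higher and 3 lower of 21 with HA-TRIM15, 11 higher and 7 lower of 21 with shYY2 and 7 higher and 2 lower of 17 with shFOXRED1. Here the medians were 0.17, 0.20, 0.29 and 0.072. IFNB1, the main interferon made by non-immune cells, was lower with shYY2, the log2 fold change being -1.11 ± 0.17, from 3.50 ± 0.387 to 1.61 ± 0.184 CPM. IFNL1, a lambda interferon of epithelia, rose with HA-TRIM15 by 0.98 ± 0.13, from 2.88 ± 0.240 to 5.66 ± 0.717 CPM. IRF9, the DNA-binding part of the complex that interferon sends to its target promoters, rose in both shRNA arms. With shYY2 it rose by 1.13 ± 0.13, from 3.05 ± 0.431 to 6.70 ± 0.268 CPM. With shFOXRED1 it rose by 0.54 ± 0.11, from 12.4 ± 0.904 to 18.0 ± 1.72 CPM. HA-TRIM15 lowered IRF9, with a log2 fold change of -0.54 ± 0.16. The interferon gene IFNE was lower with HFD (-1.16), HA-TRIM15 (-0.59), shYY2 (-1.44) and shFOXRED1 (-0.38). In the FOXRED1 experiment IFNB1 had at most 4 and IFNL1 at most 5 counts in any library, under the filter, a fact looked up after the values were seen.

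Interferon-stimulated genes outside the 10 gave 21 higher and 1 lower of 34 with HFD, 9 higher and 0 lower of 34 with HA-TRIM15, 19 higher and 9 lower of 34 with shYY2 and 24 higher and 0 lower of 31 with shFOXRED1. Their median log2 fold changes were 0.17, 0.089, 0.20 and 0.48. BST2 (tetherin), which holds budding virus at the membrane, rose with shFOXRED1 by 1.71 ± 0.096, from 15.9 ± 1.49 to 52.0 ± 5.25 CPM, and TRIM22 by 1.57 ± 0.084, from 18.5 ± 1.31 to 55.3 ± 3.70 CPM. HERC5, the ligase for ISG15, rose with shYY2 by 1.42 ± 0.031, from 104 ± 1.72 to 278 ± 5.79 CPM, while its relative HERC6 was lower, at -1.36 ± 0.046, from 80.7 ± 1.89 to 31.5 ± 1.82 CPM. RSAD2 (viperin) rose with HA-TRIM15 by 0.86 and fell with shYY2, where its log2 fold change was -0.88. In the fit over all 24 libraries, 21 of these 34 genes had a higher and 7 a lower change in the shRNA arms than in HA-TRIM15 and HFD, against the 28.2% and 29.4% of all genes given above. The arms were not alike in this. For shYY2 minus HA-TRIM15, 14 of the 34 were higher and 8 lower (28.2% and 29.3% of all genes). For shFOXRED1 minus HA-TRIM15 it was 19 and 1 (15.4% and 21.2%), and for shYY2 minus shFOXRED1 6 and 19 (28.8% and 26.7%). The other lists were read for the shRNA arms against HA-TRIM15 and HFD. They had 4 higher and 17 lower of 25 (other double-stranded RNA handling) and 3 and 10 of 14 (PKR and OAS arms). The rest had 5 and 10 of 21 (sensor signalling), 6 and 8 of 21 (interferon axis) and 8 and 8 of 20 (sensor regulators).

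The genes whose 4 log2 fold changes were nearest to those of each of the 10 were found by root mean square difference over the 4 comparisons, among 14519 genes tested in all. For OAS2 these were MX1, TRIM62 and ENSG00000289102 (0.0398, 0.0415 and 0.0461), of which MX1 is an interferon-induced GTPase. For OAS1 they were CARF, NUDT17 and GTF2IRD1 (0.0490, 0.0576 and 0.0733), for OAS3 SRCAP, MRM2 and NIPAL2 (0.0480, 0.0555 and 0.0680) and for TLR3 SGF29, ENSG00000254461 and ZNF34 (0.135, 0.135 and 0.167). The sensors and adaptor had ZNF140, TSPAN31 and CHMP4A (0.0543, 0.0550 and 0.0616) for IFIH1, DENND10, CRB3 and RBM4 (0.0204, 0.0319 and 0.0340) for DDX58, CERCAM, KBTBD3 and DENND1C (0.0406, 0.0490 and 0.0536) for DHX58 and KSR1, RAB11FIP5 and RHBDF2 (0.0431, 0.0455 and 0.0480) for MAVS. EIF2AK2 had RBMXL1, NTAQ1 and TLK1 (0.0142, 0.0400 and 0.0476) and ADAR FAM219A, RNF146 and SMAD2 (0.0229, 0.0260 and 0.0271). Values in parentheses are the differences, in log2 units.

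Genes listed as markers of other cells were low throughout. Summed leukocyte markers stood at 10.7 to 11.1 CPM with shYY2 against 14.5 to 15.8 CPM in shControl, and at 21.1 to 24.0 CPM with shFOXRED1 against 24.5 to 26.8 CPM. In xenografts they were 14.5 to 14.7 CPM with HFD and 15.8 to 17.1 CPM with ND, and with HA-TRIM15 9.20 to 10.6 CPM against 8.45 to 8.77 CPM. Of the 10 leukocyte markers, 6 to 10 had any count in a group, but only 2 passed the filter on counts in each experiment. PTPRC, the marker of all leukocytes, was at 0 in shYY2 and in the shControl of the FOXRED1 experiment. ITGAM alone stood at 6.15 CPM with shYY2 against 10.4 CPM in shControl, and at 9.05 CPM with HFD against 11.2 CPM with ND. These sums therefore do not describe a set of leukocyte genes. The 12 stromal and fat cell markers summed to 44.4 to 46.6 CPM with shYY2 against 10.9 to 11.4 CPM, and to 38.6 to 42.4 CPM with shFOXRED1 against 24.6 to 26.3 CPM. Nearly all of these sums was COL1A1, which went from 10.6 ± 0.357 to 42.7 ± 1.04 CPM (SD, n = 3) with shYY2 and from 24.6 ± 0.623 to 40.3 ± 1.67 CPM with shFOXRED1. Of the 12 markers, 2 passed the filter on counts with shYY2 and 1 in each other experiment, so the sums do not describe a set of stromal genes. ADIPOQ, DCN and FABP4 were at 0 in several groups. The sums of all 12 markers were 23.8 to 26.7 CPM with HFD against 30.5 to 33.1 CPM with ND. They were 11.7 to 12.3 CPM with HA-TRIM15 against 12.9 to 14.4 CPM with EV. The part of other cells in the changes of the 10 genes was not tested. As in all bulk RNA, fewer cells with a transcript and less of it per cell cannot be told apart.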

How the data were processed

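Poly-A RNA of OE33 xenografts and cultures was sequenced on DNBSEQ. The authors deposited counts of reads per gene, not normalized, 1 table per experiment with 6 libraries each. The aligner and counter are not given in the sources used here. The submitters' processing notes name the builds hg38 and mm10, and how mouse reads in xenografts were handled is not stated. The labels name a directional library kit and the paper a non-directional one, and counting by strand is not stated. Exons of other genes overlap at most 3.73% of the exon bases of any of the 10 genes (EIF2AK2). All 37 mitochondrial genes are listed at 0. In the HA-TRIM15 table columns were taken by number, since the header has 3 empty cells.

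Genes were filtered with filterByExpr (minimum count 10, minimum total 15) and compared with edgeR 4.0.16 (R 4.3.3; limma 3.58.1) by TMM, glmQLFit and glmQLFTest, each experiment alone, and for differences between experiments in 1 fit of 8 group means. P-values were adjusted by Benjamini-Hochberg over all genes tested in a comparison, not over the 7 differences, with a threshold of 0.05. Errors are the log2 fold change over the square root of F, and 95% intervals use the fit's degrees of freedom. CPM are scaled by TMM. Depth was 14299807 to 45994561 counts a library. With 3 against 3 an exact permutation test cannot go below 0.1. Libraries of 1 group differed by 1.47 to 7.94 in chi-square per gene, so none was a copy. The fits were also run on simulated counts, with the same extra spread for every gene and libraries that varied independently. The real libraries are less even than that, so the simulation does not vouch for the p-values given here.

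In the FOXRED1 experiment same-numbered libraries deviated together (correlations 0.214, 0.127 and 0.414), and the labels give no reason for it. The YY2 experiment had correlations of -0.0015, 0.139 and 0.207, and the other experiments -0.078 to 0.125. Alternatives were DESeq2 1.42.0 size factors, DESeq2's own test, other filters, the replicate block and leaving out each library. The 10 genes and all lists were chosen with earlier results of these data known. Beside the 10 genes, the text names from each list genes among up to 2 in each direction per experiment with the largest change among those past the threshold, at 1 CPM or more and with groups that do not overlap, and the 3 genes nearest in pattern to each of the 10. Promoter windows are RefSeq's (GRCh38.p14) and gene places and lengths GENCODE 29's. Some genes of the lists are not reported here by name.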

Additional observations from a re-analysis of the deposited data

Results flagged for a closer look

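Several of the 10 genes changed differently in different experiments by a test of the difference itself (edgeR quasi-likelihood test over 24 libraries). Against HA-TRIM15 and HFD together, the shRNA arms differed in IFIH1 (0.16), DHX58 (0.45), TLR3 (0.34), MAVS (0.22), EIF2AK2 (-0.18), OAS1 (0.77) and OAS2 (0.44), all on the log2 scale. OAS1 and OAS2 alone held against each of HA-TRIM15 and HFD in each arm. DHX58 did not differ past the threshold for shFOXRED1 (0.0054 and -0.013). IFIH1 did not differ past the threshold from HA-TRIM15 in either arm (-0.15 for shYY2 and 0.15 for shFOXRED1). The TLR3 value sets the mean of -0.68 with shYY2 and 1.12 with shFOXRED1 against that of -0.14 with HA-TRIM15 and -0.089 with HFD. Its call was lost in 4 alternatives. With shYY2 alone TLR3 had a lower change than with HA-TRIM15 (-0.51) or HFD (-0.56), both past the threshold. Between shYY2 and shFOXRED1 the differences past the threshold were those of IFIH1 (-0.30), DHX58 (0.92), TLR3 (-1.76), MAVS (0.15), OAS1 (0.18) and OAS3 (-1.14). The number of the 10 genes that differed was 6 between shYY2 and HA-TRIM15 (57.4% of all genes) and 9 between shYY2 and HFD (61.9%). It was 5 between shFOXRED1 and HA-TRIM15 (36.5%), 6 between shFOXRED1 and HFD (49.5%) and 6 between HFD and HA-TRIM15 (28.4%).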

How the results depend on the processing

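For the values of the 10 genes in the 4 experiments and the pooled shRNA contrast, and of the 6 called between shYY2 and shFOXRED1, leaving out 1 library kept the direction and the side of the threshold in 599 refits, lost a call in 14, gained one in 1 and turned the sign in 10, and the other settings did so in 265, 8, 1 and 6. Lost calls stand beside their results. For single differences of experiments, only the counts and the OAS1 and OAS2 values were followed through these settings. Values near 0 that changed sign were EIF2AK2 with shYY2 (0.0072 with DESeq2 size factors and with DESeq2's own test, 0.019 with at least 10 counts in every library, -0.043 to 0.015 leaving out 1 library) and ADAR in the shRNA arms against HA-TRIM15 and HFD (-0.00045 with DESeq2 size factors, -0.0053 with no filter, -0.00076 with DESeq2, -0.0029 to 0.033 leaving out 1 library). Leaving out 1 library also moved IFIH1 with HFD over -0.012 to 0.035, TLR3 over -0.22 to 0.0065 and ADAR over -0.0097 to 0.017 with HA-TRIM15, and EIF2AK2 with shFOXRED1 over -0.067 to 0.066. It moved the genes higher with shYY2 over 5 to 7, with HFD over 3 to 4 and with HA-TRIM15 over 1 to 2. Those lower with shYY2 than HA-TRIM15 moved over 1 to 3 and those higher with shYY2 than HFD over 3 to 6. With no filter on counts the latter 2 numbers were 1 and 3, and the genes higher with shYY2 than shFOXRED1 were 1.

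The replicate block changed 1 call among the 4 comparisons, that of ADAR with shFOXRED1 (0.095, adjusted p = 0.00948, edgeR). Over all genes, HA-TRIM15 called 22.1%, and 31.8% without HA-TRIM15 replicate 1, 13.9% without its replicate 2, and 13.5%, 13.7% and 12.7% without EV replicates 1, 2 and 3. The cause of these shifts was not tested. Depth limits DDX58 and TLR3, which had 52 to 539 counts a library.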
